A study of Rattus norvegicus with 2 samples.

Results

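The 8 genes described here are Id1, Id2, Id3 and Id4, which encode the inhibitor of DNA binding (ID) proteins, and 4 genes of bone morphogenetic protein (BMP) signalling, the ligand gene Bmp7, the receptor gene Bmpr1a and the inhibitory SMAD genes Smad6 and Smad7. They were taken by symbol from the deposited table of 25399 genes, and all 8 were found. Their levels were compared between rat cortical neural stem cells exposed to ZD7288, a blocker of HCN channels, and cells exposed to vehicle. Both cultures were started from cortex of E14.5 Sprague-Dawley rat embryos and kept in complete medium with FGF2, which holds such cells undifferentiated. The ZD7288 culture received 30 µM of the compound in DMSO at 0.2% for 48 h, renewed with the medium after 24 h, and the vehicle culture received the same share of DMSO alone. The name ZD7288 follows the series title and treatment protocol, since a label of the treated sample reads ZD2788.

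Each group was a single culture run as 1 droplet library, so effects of the treatment, the culture and the library cannot be told apart. No test between groups was possible, and no p-value is given. Values are UMIs (unique molecular identifiers, each marking 1 captured transcript molecule) summed over the kept cells and scaled to 1000000 UMIs of the library (CPM). Brackets hold exact 95% intervals, which cover counting error only. "Higher" and "lower" are used of genes that differed by at least 1.5-fold, and "measured" of genes that reached 20 CPM in either library.

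ID proteins carry a helix-loop-helix domain but no basic region, so they pair with E proteins such as TCF3 and TCF4 and keep these and their proneural partners from binding DNA. BMP ligands bind type I receptors such as BMPR1A together with type II receptors, the receptor SMADs are then phosphorylated, and the Id genes are among the best known targets of these SMADs. SMAD6 and SMAD7 act as feedback inhibitors of the pathway, and in cortical progenitors ID proteins are known for holding back differentiation.

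The promoter windows of the 4 Id genes are shown because these genes share a known upstream pathway but did not have like ratios between the libraries. The windows are from RefSeq on rat assembly GRCr8, each running from 250 bases before to 50 bases after the annotated start, 5′ to 3′ on the gene's strand. They lie at chr3:161671314-161671613 on the plus strand for Id1, chr6:47470946-47471245 on the minus strand for Id2, chr5:153656041-153656340 on the plus strand for Id3 and chr17:16598244-16598543 on the minus strand for Id4. Capitals mark every match, on either strand, to GGCGCC and GTCTG (known SMAD-binding motifs), TGACG (the first letters of the cyclic AMP response element), CANNTG (the E-box that E proteins and their partners bind) and TATAA (the TATA box core, added after the sequences were seen).
Id1: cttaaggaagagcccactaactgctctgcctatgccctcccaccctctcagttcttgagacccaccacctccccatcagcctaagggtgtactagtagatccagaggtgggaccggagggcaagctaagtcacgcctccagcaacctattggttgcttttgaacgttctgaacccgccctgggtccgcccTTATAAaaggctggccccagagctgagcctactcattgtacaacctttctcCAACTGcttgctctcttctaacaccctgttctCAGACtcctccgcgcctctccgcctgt
Id2: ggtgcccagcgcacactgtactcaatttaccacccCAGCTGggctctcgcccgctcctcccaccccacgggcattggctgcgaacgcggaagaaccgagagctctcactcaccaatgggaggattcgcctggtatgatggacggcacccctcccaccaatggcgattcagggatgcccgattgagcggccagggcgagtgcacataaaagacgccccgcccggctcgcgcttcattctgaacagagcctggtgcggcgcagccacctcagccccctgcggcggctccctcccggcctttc
Id3: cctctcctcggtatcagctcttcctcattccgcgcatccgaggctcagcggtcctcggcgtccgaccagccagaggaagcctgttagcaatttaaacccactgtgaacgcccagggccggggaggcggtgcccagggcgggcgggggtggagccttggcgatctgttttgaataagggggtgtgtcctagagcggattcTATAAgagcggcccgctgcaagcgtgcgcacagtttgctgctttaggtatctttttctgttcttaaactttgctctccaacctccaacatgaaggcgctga
Id4: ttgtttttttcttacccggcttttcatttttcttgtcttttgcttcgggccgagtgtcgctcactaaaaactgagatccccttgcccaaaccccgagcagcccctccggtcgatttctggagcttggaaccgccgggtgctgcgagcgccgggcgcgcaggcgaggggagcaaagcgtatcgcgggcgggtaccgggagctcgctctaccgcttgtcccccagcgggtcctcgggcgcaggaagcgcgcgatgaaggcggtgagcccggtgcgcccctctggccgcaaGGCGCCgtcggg

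The 4 Id windows held different motifs. Positions count from the annotated start as 0, along the gene's strand. The Id1 window held GTCTG on the minus strand from position 23, an E-box from position -9, and TATAA on both strands from positions -60 and -59, which overlap each other in the capitals TTATAA. An E-box from position -215 was the match of the Id2 window, TATAA from position -51 that of the Id3 window, and GGCGCC from position 38 that of the Id4 window. The letters atg stand at position 0 of the Id4 window, so its annotated start may be a start codon. Its GGCGCC would then lie in coding sequence, and the bases before the start may be transcribed. The Id4 window may thus not be a promoter like the others. No base was shared between matches of different motifs. TGACG was found in none of the 4 windows, which says only that these letters are not in these stretches. Of 33469 promoter windows of this length in the rat table, 11.0% held GGCGCC, 50.1% GTCTG, 21.2% TGACG, 72.1% CANNTG and 26.2% TATAA. Over the 4040 windows matched to genes measured here the shares were 23.0%, 47.3%, 38.0%, 60.0% and 12.6%. The GC content was 55.7% in the Id1 window, 65.3% in Id2, 58.0% in Id3 and 65.0% in Id4, beside a median of 61.3% for measured genes. Of the BMP pathway genes, Bmpr1a and Smad7 also had a window. The Smad7 window held GGCGCC at positions -96 and -36, and the Bmpr1a window held TATAA on both strands from positions -232 and -231. A match is a description of letters and not a binding site.

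The ZD7288 library held 3135 kept cells with 73681950 UMIs, and the vehicle library 732 kept cells with 15611454 UMIs. The median cell had 23001 UMIs and 4.70% mitochondrial UMIs with ZD7288, against 17119 UMIs and 5.84% with vehicle. Markers of neural stem cells were present in both, 9 of 12 being measured, with Sox2 at 247 CPM against 230.0 CPM and Nes at 134 CPM against 121 CPM. Of these 9, 2 were higher, Msi1 at 36.0 CPM against 18.6 CPM and Slc1a3 at 294 against 186 CPM, and 2 were lower, Sox9 at 78.2 against 138 CPM and Hes1 at 14.4 against 25.5 CPM. The stem cell gene Hes5 was nearly absent, with 3 UMIs with ZD7288 and 4 with vehicle. Of 8 astrocyte markers, Gfap had 4 UMIs with ZD7288 and 0 with vehicle, while 3 were measured and passed 1.5-fold in neither direction. These were Sparcl1 at 204 against 230 CPM, Gja1 at 38.1 against 27.4 CPM and Aldoc at 35.7 against 36.4 CPM. Of 7 neuron markers 2 were measured, Gap43, higher at 103 against 67.7 CPM, and Map2, at 65.0 against 96.5 CPM and short of 1.5-fold. None of 8 microglia markers was measured, with 6 at 0 in both libraries and a sum of 0.0271 CPM with ZD7288 and 0 with vehicle. Of 7 matched markers of endothelial cells, a cell type known for high Id1, 3 were at 0 in both libraries, and the summed level was 2.42 CPM against 1.02 CPM. The 9 mesenchymal markers, which cover pericytes and fibroblasts, summed to 16.3 CPM against 0.705 CPM, with at least 1 such UMI in 338 of the ZD7288 cells and 9 of the vehicle cells. Over the transcriptome, 485 of 4823 measured genes were higher with ZD7288, which is 10.1%, and 251 were lower, which is 5.20%. With the median gene ratio set to 1 in place of equal UMI totals, these counts were 338 and 357.

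Among the 8 genes, Id1 was higher with ZD7288 and Id2 and Bmp7 were lower. Id3 and Id4 were measured and passed 1.5-fold in neither direction. Bmpr1a, Smad6 and Smad7 stayed below the measured level in both libraries. So 1 of 5 measured members was higher and 2 of 5 were lower, against 10.1% and 5.20% of all measured genes, counts too small to set the group apart from them. Of all measured genes, 97.8% had a smaller ratio than Id1, 69.1% than Id3, 56.1% than Id4, 5.04% than Id2 and 2.16% than Bmp7.

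**Figure D1:**
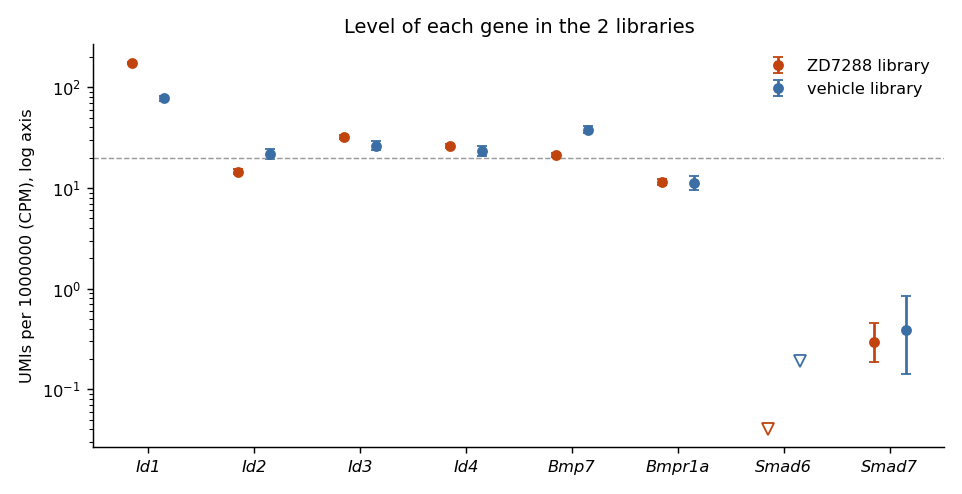
Level of each of the 8 genes in the ZD7288 and the vehicle library, in CPM on a log axis, with exact 95% Poisson intervals as bars, the level called measured as a dashed line, and open triangles at the CPM that a count of 0 allows. Id1 stands at 175 CPM with ZD7288 and 78.2 CPM with vehicle, while Id2 and Bmp7 have their lower value in the ZD7288 library.

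Id1 (ENSRNOG00000021750), the family member most used as a readout of BMP signalling, had 12872 UMIs in the ZD7288 library and 1221 UMIs in the vehicle library. These gave 175 CPM (172 to 178) with ZD7288 and 78.2 CPM (73.9 to 82.7) with vehicle. The counting intervals lay far apart, and the ratio was 2.23-fold (2.11 to 2.37), a log2 ratio of 1.16. In GRCr8 the Id1 gene overlaps a long noncoding RNA gene, LOC134486187, and since the counting strand is not given in the sources used here, reads of the pair may not have been told apart.

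The difference in Id1 was also seen in the share of cells with an Id1 UMI. With every cell thinned to 2000 UMIs, 26.8% (25.2 to 28.5) of 2956 ZD7288 cells and 14.8% (12.3 to 17.6) of 724 vehicle cells held one. With every cell thinned to 5000 UMIs, 50.1% (48.2 to 52.0) of 2838 ZD7288 cells and 30.0% (26.6 to 33.5) of 710 vehicle cells did. Without thinning they were 82.5% and 63.0%, of cells that differed in depth. The share of cells that free RNA gives was not measured, because the cultures held no identified cells known to be without Id transcripts.

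More ZD7288 cells than vehicle cells held several Id1 UMIs, at a higher mean. At 5000 UMIs, 9.76% (8.69 to 10.9) of ZD7288 cells and 2.54% (1.51 to 3.98) of vehicle cells held 3 or more Id1 UMIs. The highest cell held 12 Id1 UMIs with ZD7288 and 6 with vehicle, a value that grows with the number of cells and with the mean. The variance over cells divided by the mean, which is 1 for pure counting error, was 1.69 with ZD7288 and 1.40 with vehicle for Id1, and 1.58 and 1.45 for Id3. For Id2, Id4 and Bmp7 it lay between 1.06 and 1.16 with ZD7288 and between 0.995 and 1.13 with vehicle. This value rises with the mean where cells differ, and mean Id1 UMIs per cell were 0.906 with ZD7288 and 0.417 with vehicle. The means were 0.174 and 0.154 for Id3, 0.0817 and 0.115 for Id2, 0.128 and 0.128 for Id4, and 0.106 and 0.187 for Bmp7. So the value lay between 1.40 and 1.69 for Id1 and Id3 over both libraries, above that of pure counting error. No interval was computed for it, so whether Id2, Id4 and Bmp7 also varied beyond counting error was not tested. Id3 varied more than Id2, Id4 and Bmp7 at means not far from theirs, while Id1 cannot be ranked against them by this value.

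**Figure D2:**
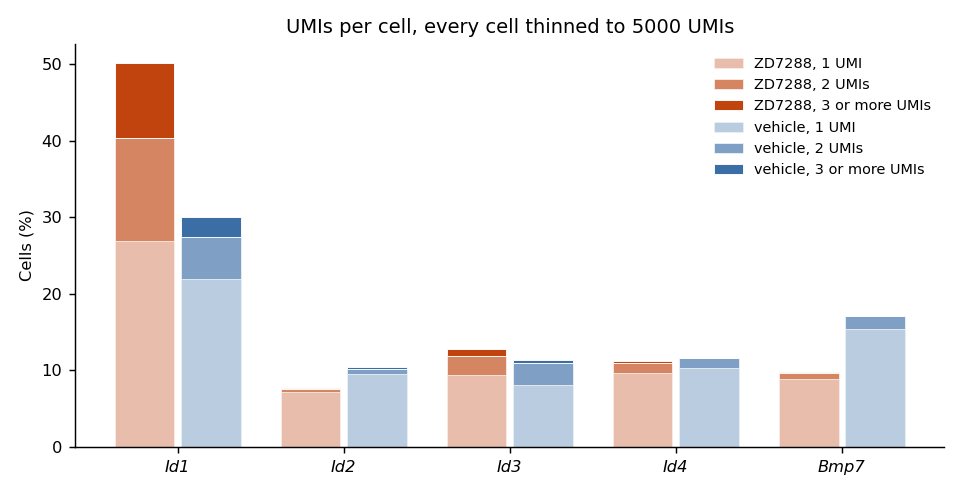
Share of cells, in percent, with 1, 2 and 3 or more UMIs of Id1 to Id4 and Bmp7 after every cell was thinned to 5000 UMIs, as stacked bars for 2838 ZD7288 cells and 710 vehicle cells. The Id1 bar reaches 50.1% with ZD7288 and 30.0% with vehicle, and the Bmp7 bar 9.73% and 17.0%.

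Id2 (ENSRNOG00000007237), known in the oligodendrocyte lineage as a partner of OLIG proteins, had 1073 UMIs in the ZD7288 library and 342 UMIs in the vehicle library. Its level was 14.6 CPM (13.7 to 15.5) with ZD7288 and 21.9 CPM (19.6 to 24.4) with vehicle, so that it reached the measured level in the vehicle library alone. It was lower at a ratio of 0.665 (0.588 to 0.753), a log2 ratio of -0.59 that sits on the 1.5-fold limit. The call ended when likely doublets were left out, at a log2 ratio of -0.58, and when every cell had the same weight, at -0.57. At 2000 UMIs, 2.81% (2.24 to 3.47) of ZD7288 cells and 4.42% (3.04 to 6.18) of vehicle cells held an Id2 UMI, and the 2 intervals overlapped. Without thinning the shares were 23.2% (21.7 to 24.7) and 30.6% (27.3 to 34.1).

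Id3 (ENSRNOG00000026124), a BMP target like Id1, had 2364 UMIs with ZD7288 and 413 UMIs with vehicle. The levels were 32.1 CPM (30.8 to 33.4) and 26.5 CPM (24.0 to 29.1), a ratio of 1.21 (1.09 to 1.35) that stayed short of 1.5-fold. Id4 (ENSRNOG00000016099), which in mouse is known for restraining the other ID proteins and for marking quiescent neural stem cells, had 1912 UMIs with ZD7288 and 365 UMIs with vehicle. Its levels were 25.9 CPM (24.8 to 27.1) and 23.4 CPM (21.04 to 25.9), a ratio of 1.11 (0.992 to 1.24) whose interval held 1. At 2000 UMIs an Id3 UMI was seen in 6.16% of ZD7288 and 4.56% of vehicle cells and an Id4 UMI in 5.01% and 3.87%. At 5000 UMIs the shares were 12.8% and 11.4% for Id3 and 11.2% and 11.5% for Id4. The intervals of the libraries overlapped for both genes at both depths.

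The makeup of the Id family thus differed between the libraries. Summed over the 4 genes, Id UMIs made 247 CPM with ZD7288 and 150.0 CPM with vehicle, a ratio of 1.65 (1.58 to 1.72). Without Id1 the ratio of the summed level was 1.01 (0.949 to 1.08), so the summed difference rested on Id1. Id1 made up 70.6% (70.0 to 71.3) of all Id UMIs with ZD7288 and 52.2% (50.1 to 54.2) with vehicle. The share of Id2 was 5.89% (5.55 to 6.24) with ZD7288 and 14.6% (13.2 to 16.1) with vehicle. There were 12.0 Id1 UMIs (11.3 to 12.8) for each Id2 UMI with ZD7288 and 3.57 (3.16 to 4.04) with vehicle. These shares and the Id1 to Id2 ratios lie within a library and do not depend on how the libraries are scaled, unlike the ratios of summed levels.

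Bmp7 (ENSRNOG00000053384), the secreted ligand of the group, was lower with ZD7288. It had 1579 UMIs in the ZD7288 library and 592 UMIs in the vehicle library. The levels were 21.4 CPM (20.4 to 22.5) with ZD7288 and 37.9 CPM (34.9 to 41.1) with vehicle, which is 1.77-fold lower (1.61 to 1.95). At 2000 UMIs, 3.96% (3.28 to 4.72) of ZD7288 cells and 8.01% (6.14 to 10.2) of vehicle cells held a Bmp7 UMI, intervals that did not overlap. At 5000 UMIs the shares were 9.73% (8.66 to 10.9) and 17.0% (14.3 to 20.01). In unthinned cells they were 34.2% and 49.3%. Ligand and target gene therefore had ratios on opposite sides of 1, Bmp7 below it and Id1 above it.

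Bmpr1a (ENSRNOG00000052469), the type I receptor gene, had close levels in the 2 libraries. It had 840 UMIs with ZD7288 and 176 UMIs with vehicle, or 11.4 CPM (10.6 to 12.2) and 11.3 CPM (9.67 to 13.1), a ratio of 1.01 (0.859 to 1.20). Without thinning 22.7% of ZD7288 cells and 20.5% of vehicle cells held a UMI, and at 5000 UMIs 5.53% and 6.48%. The gene overlaps a pseudogene, Tenol-ps1, and a long noncoding RNA gene, LOC108353075, in GRCr8, which leaves its count uncertain.

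The inhibitory SMAD genes were barely detected. Smad7 (ENSRNOG00000018359), which blocks both BMP and TGF-beta receptors, had 22 UMIs with ZD7288 and 6 UMIs with vehicle. These are 0.299 CPM (0.187 to 0.452) and 0.384 CPM (0.141 to 0.837), and the ratio of 0.777 (0.305 to 2.34) leaves a change in either direction undetectable at this depth. Smad6 (ENSRNOG00000009173), which acts mainly on BMP receptors, had 0 UMIs in both libraries. A count of 0 allows up to 0.0407 CPM with ZD7288 and 0.192 CPM with vehicle, for reads that the counting could assign to the gene. The annotation used is not given in the sources used here, and if it does not cover the 3′ end of Smad6, the 0 sets no limit on expression. Neither count is deep enough to compare the libraries.

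Along the cell cycle, the differences in Id1 and Bmp7 were seen in every range. Cells were put in 3 ranges by S phase and G2/M list UMIs among 2000, ranges of a score and not cell types. S phase led in 1012 ZD7288 and 269 vehicle cells, G2/M led in 1161 and 353 cells, and 783 and 102 cells held under 10 list UMIs. Id1 stood at 183 CPM with ZD7288 against 78.2 CPM with vehicle in the S phase range, at 169 against 78.7 CPM in the G2/M range, and at 174 against 74.4 CPM under 10 list UMIs. Its level was thus close over the ranges of each library, with ratios of 2.34, 2.15 and 2.34. Bmp7 had ratios of 0.653 (0.557 to 0.768), 0.583 (0.509 to 0.668) and 0.410 (0.313 to 0.544) in the same order. Its level in the vehicle library lay between 37.5 and 39.3 CPM in all ranges, while in the ZD7288 library it was 24.5 CPM in the S phase range, 22.0 CPM in the G2/M range and 16.1 CPM (14.3 to 18.1) under 10 list UMIs.

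The ratio of Id3 also varied with the cycle range. It stood at 39.4 CPM (36.9 to 42.0) with ZD7288 and 26.8 CPM (22.7 to 31.5) with vehicle in the S phase range, a ratio of 1.47 (1.23 to 1.75). In the G2/M range the levels were 23.9 and 23.7 CPM, and under 10 list UMIs they were 37.4 and 38.7 CPM. Within the ZD7288 library, Id3 was 1.65-fold (1.499 to 1.82) as high in the S phase range as in the G2/M range, and within the vehicle library 1.13-fold (0.910 to 1.41), where the interval held 1. Id2 had S phase to G2/M ratios of 1.32 (1.15 to 1.52) with ZD7288 and 1.20 (0.954 to 1.51) with vehicle, while Id4 had 0.841 (0.757 to 0.934) and 0.943 (0.750 to 1.18). Id2 had ZD7288 to vehicle ratios of 0.664 in the S phase range and 0.604 in the G2/M range, and of 0.823 (0.573 to 1.22) under 10 list UMIs, where 33 vehicle UMIs leave the direction undetermined. Id4 had ratios of 1.05, 1.18 and 1.15, none past 1.5-fold.

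Depth per cell and the mitochondrial share differed between the libraries, so the members were also compared within ranges of each. This comparison was added after the data were seen. Depth was not equal within a range. Of the cells with fewer than 15000 UMIs, 538 with ZD7288 and 278 with vehicle, 297 and 22 held fewer than 5000. In cells with fewer than 15000 UMIs, Id1 stood at 169 CPM with ZD7288 and 99.3 CPM with vehicle. From 15000 to 25000 UMIs the levels were 183 and 93.2 CPM, and above 25000 UMIs 170.0 and 59.0 CPM (from 437 vehicle UMIs). The ratio was 1.70 (1.48 to 1.96) in the shallowest cells, 1.96 (1.78 to 2.16) in the middle and 2.88 (2.61 to 3.18) in the deepest, the level of the vehicle cells being lower where cells were deep. Bmp7 had ratios of 0.524, 0.652 and 0.536 in the same ranges, lower with ZD7288 in each. Id2 had ratios of 0.615, 0.716 and 0.642, and the middle one did not reach 1.5-fold. Id3 passed 1.5-fold in the middle range, at 1.63 (1.34 to 1.99), and in neither of the others, at 1.31 (1.04 to 1.66) and 1.19 (1.01 to 1.40).

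The ratio of Id2 varied with the mitochondrial share. In cells with at most 5% mitochondrial UMIs, 1912 with ZD7288 and 173 with vehicle, Id2 stood at 13.8 CPM and 31.1 CPM, a ratio of 0.444 (0.357 to 0.557). In the cells above 5%, the levels were 15.6 and 19.6 CPM and the ratio 0.795 (0.681 to 0.931), short of 1.5-fold. Bmp7 had ratios of 0.454 (0.378 to 0.548) in the cells of low mitochondrial share and 0.648 (0.576 to 0.731) in the others, and was lower in both. Id1 was higher in both, at 2.10 (1.86 to 2.39) and 2.25 (2.10 to 2.41). Id3 had ratios of 1.00 (0.813 to 1.247) and 1.33 (1.17 to 1.52). Without the cells that held a UMI of a mesenchymal marker, log2 ratios were 1.14 for Id1, -0.59 for Id2, 0.27 for Id3, 0.11 for Id4 and -0.78 for Bmp7, close to those over all kept cells.

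**Figure D3:**
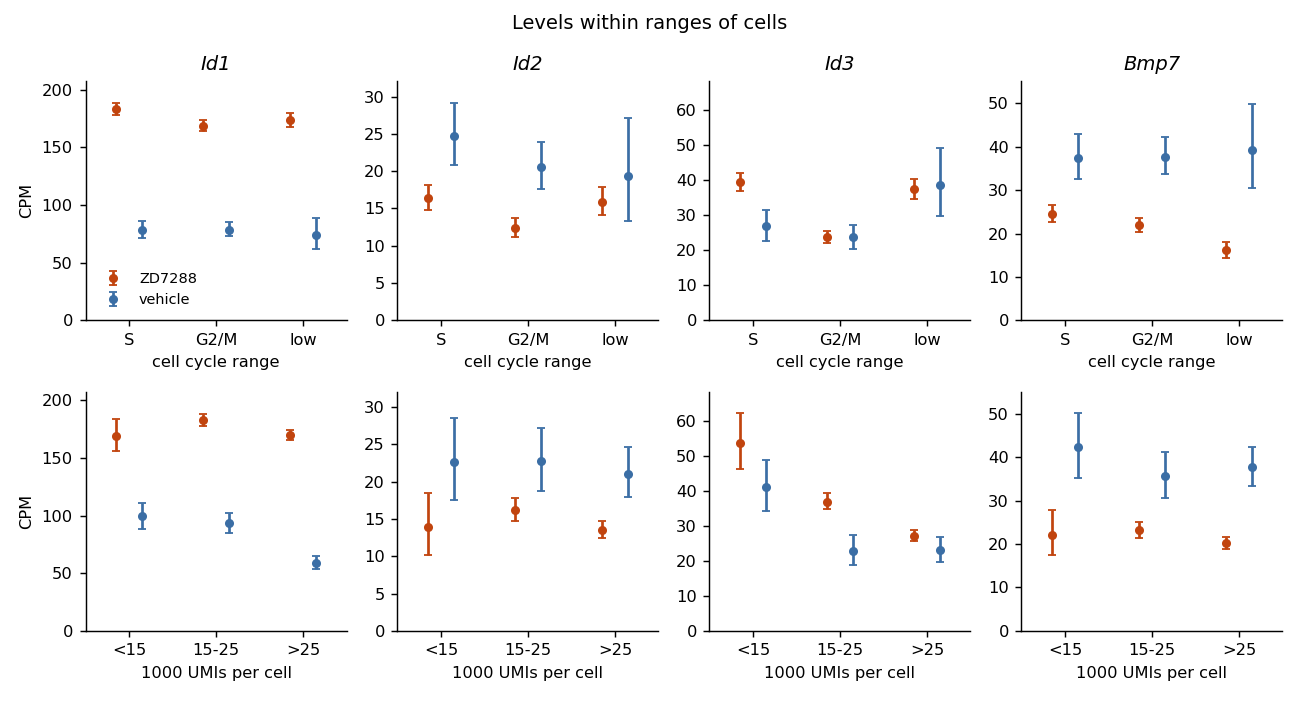
CPM of Id1, Id2, Id3 and Bmp7 in ZD7288 and vehicle cells, by cell cycle range (top, with "low" for cells under 10 cycle UMIs) and by UMIs per cell in units of 1000 (bottom), with exact 95% Poisson intervals as bars. Id1 is above its vehicle level and Bmp7 below it in every panel range, while Id3 stands at 39.4 CPM against 26.8 CPM in the S phase range and at 23.9 against 23.7 CPM in the G2/M range.

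Whether the Id genes were seen in the same cells was asked by setting the number of cells with UMIs of both genes of a pair beside the product of the 2 shares. Thinned to 2000 UMIs, 4.40% of ZD7288 cells held UMIs of 2 or more Id genes, against 4.03% from the shares alone, a ratio of 1.09 (0.913 to 1.30). In the vehicle library these were 1.93% and 2.27%, a ratio of 0.851 (0.465 to 1.43). At that depth 0 of 6 pairs in the vehicle library had 5 or more cells by the product of shares. At 5000 UMIs all 6 pairs did in both libraries. There, 16.2% of ZD7288 cells held 2 or more Id genes, against 15.8% from the shares, and 11.3% of vehicle cells, against 11.3%. No Id gene was seen in 37.1% of ZD7288 cells and 48.9% of vehicle cells.

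By pairs, 6 of 6 lay above 1 in the ZD7288 library at 5000 UMIs and 3 of 6 in the vehicle library, and every interval held 1. Id1 and Id3 were both seen in 197 ZD7288 cells, where the shares give 182, a ratio of 1.08 (0.937 to 1.245), and in 31 vehicle cells, where they give 24.3, a ratio of 1.28 (0.867 to 1.81). Id2 and Id3 were both seen in 39 ZD7288 cells, where the shares give 27.8, a ratio of 1.41 (0.999 to 1.92), and in 10 vehicle cells, where they give 8.44. The fewest for the shares were for Id2 and Id4 in the vehicle library, with 3 cells where the shares give 8.55, a ratio of 0.351 (0.0724 to 1.03). Without thinning, when deep cells hold more UMIs of every gene, intervals lay above 1 for 4 of 6 pairs with ZD7288 and 1 of 6 with vehicle. Within cycle ranges at 5000 UMIs, where pairs rest on fewer cells, 2 intervals of the ZD7288 library lay above 1. These were Id2 and Id4 under 10 list UMIs, with 13 cells where the shares give 5.97, a ratio of 2.18 (1.16 to 3.72), and Id1 and Id4 in the G2/M range, at 1.254 (1.003 to 1.55). More ZD7288 cells than the shares give also held 3 Id genes, 2.26% (1.74 to 2.87) against 1.52%, or all 4, 5 cells or 0.176% (0.0572 to 0.411) against 0.0547%. In the vehicle library 3 Id genes were seen in 0.986% (0.397 to 2.02) of cells against 1.09% from the shares, and 4 in 0 of 710 cells, which allows a share of up to 0.423%. At equal depth over all cycle ranges, then, co-detection beyond the separate shares was not detectable for any single pair. Cells with 3 Id genes exceeded the shares in the ZD7288 library at 5000 UMIs with all ranges pooled. At 2000 UMIs they made 0.338% (0.162 to 0.621) against 0.166% from the shares, which the interval held. Within each cycle range at 5000 UMIs the interval also held the value from the shares, with 2.78% (1.84 to 4.02) against 1.92% in the S phase range. The excess of cells with all 4 rests on 5 cells.

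**Figure D4:**
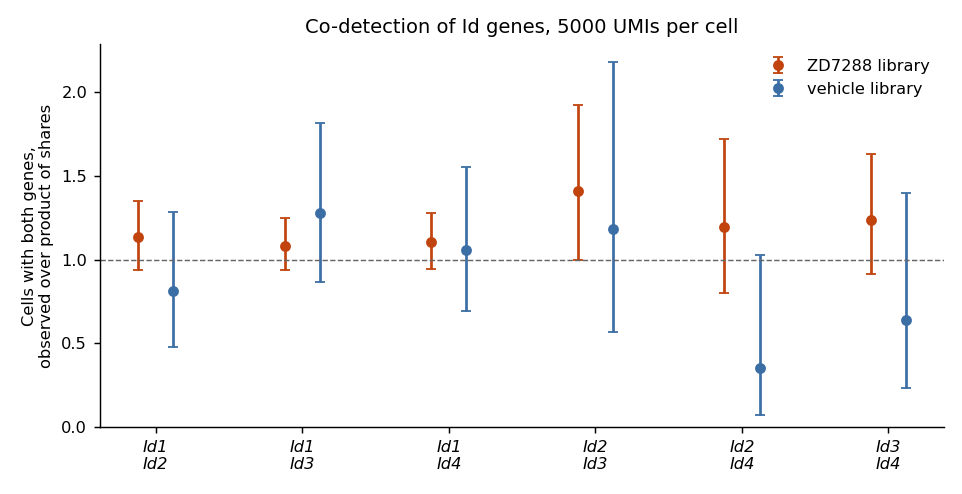
Cells with UMIs of both genes of an Id pair divided by the number that the product of the 2 shares gives, every cell thinned to 5000 UMIs, for 2838 ZD7288 and 710 vehicle cells, with exact 95% Poisson intervals as bars and a dashed line at 1. Every interval reaches 1, and the values run between 1.08 and 1.41 with ZD7288 and between 0.351 and 1.28 with vehicle.

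Across cells, correlations of the Id genes with other measured genes were weak, as sparse counts make them, and serve as a description only. The gene most like Id1 was Id3, with a Pearson r of 0.16 over 2956 ZD7288 cells and 0.08 over 724 vehicle cells on the log scale. Next were Ckb, a creatine kinase gene, with 0.12 and 0.12, and Hprt1, a purine salvage gene, with 0.07 and 0.15. Id1 was in turn the gene most like Id3, followed by Wscd1 with 0.03 and 0.17 and Igfbp5 with 0.04 and 0.15. The genes most like Id4 were Sparc, a matrix protein gene, with 0.12 and 0.15, Ptn with 0.12 and 0.14 and Nrgn with 0.14 and 0.12. For Id2 they were Nrn1 with 0.05 and 0.15, RGD1302996 with 0.02 and 0.17 and Rnd3 with 0.01 and 0.17. The places of these genes, and of Wscd1 and Igfbp5 for Id3, rested on the smaller vehicle library. All were picked as the highest among 4823 measured genes, and how high such picks reach by sampling alone was not tested. Depth and cell cycle are shared by all genes of a cell, and their part in these values was not tested. Between Id genes and Bmp7 r lay between -0.06 and 0.05 in both libraries.

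The other genes of the pathway were taken from 8 lists of 124 symbols, of which 122 were matched and 24 measured. Of these 24, 5 were higher and 5 lower, where 10.1% and 5.20% of all measured genes were, and their median log2 ratio was 0.25, beside 0.09 for all measured genes. No other BMP or GDF ligand of 15 was measured, and 7 had no UMI in either library. Named after their values were seen, Gdf15, which encodes a distant stress-induced member of the family, had 324 UMIs with ZD7288 and 2 UMIs with vehicle, a ratio of 34.3 (9.43 to 285). Bmp2 had 39 UMIs with ZD7288 and 1 UMI with vehicle, a ratio of 8.26 (1.40 to 335), and Bmp4 had 12 and 2 UMIs. Gdf11 went the other way, with 137 UMIs with ZD7288 and 57 UMIs with vehicle, a ratio of 0.509 (0.371 to 0.706). Among receptors the measured gene was Rgma, a BMP co-receptor gene, which was lower at 18.1 CPM with ZD7288 and 30.6 CPM with vehicle, 1.69-fold (1.52 to 1.88). Below the measured level, and named after their values were seen, the type II receptor gene Bmpr2 had 9.50 and 7.69 CPM and the type I receptor gene Acvr1 9.17 and 8.97 CPM. Another type II receptor gene, Acvr2b, had 7.53 and 11.5 CPM, a ratio of 0.657 (0.554 to 0.782).

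Of 2 measured antagonist genes Fstl1, which encodes a secreted follistatin-like protein, was higher at 156 CPM with ZD7288 and 55.2 CPM with vehicle, a ratio of 2.82 (2.64 to 3.03). Of 7 measured SMAD and intracellular regulator genes 2 were higher and 0 lower, where 10.1% and 5.20% of all measured genes were. Neither this list nor the antagonist list is large enough to be set apart from them. Smad1, a receptor SMAD that carries the BMP signal, stood at 87.6 CPM with ZD7288 and 55.9 CPM with vehicle, a ratio of 1.57 (1.46 to 1.68). Tob1, an inhibitor of BMP SMADs, stood at 23.3 and 15.4 CPM, a ratio of 1.51 (1.32 to 1.74). The related receptor SMAD gene Smad5, named after its value was seen, had 30.6 and 23.8 CPM, a ratio of 1.28 (1.15 to 1.43). With the median gene ratio set to 1, the count of higher genes over the lists was 3 in place of 5, beside 7.10% of all measured genes. The calls that ended were those of Smad1 and Tob1.

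Of 3 other measured BMP target genes, 2 were higher, where 10.1% of all measured genes were, a count too small to set the list apart. They were Cdkn1a, at 196 CPM with ZD7288 and 56.4 CPM with vehicle, and the SMAD corepressor gene Tgif1, at 68.4 and 31.1 CPM. Tgif1, 2.20-fold higher (2.00 to 2.42), was also the measured gene of the TGF-beta and activin list. Below the measured level in that list, and named after their values were seen, Tgfbr1 had 6.42 CPM with ZD7288 and 13.6 CPM with vehicle. Tgfb1 had 3.27 and 1.86 CPM. Cdkn1a encodes a CDK inhibitor with many inducers and is no specific BMP readout. The third measured target gene, Zcchc12, had a ratio of 1.45 and stayed short of 1.5-fold. Below the measured level, and named after their values were seen, other target genes passed 1.5-fold in both directions. Junb, at 19.3 and 9.80 CPM, Nfix, at 13.3 and 8.20 CPM, and Klf4, at 4.25 and 2.11 CPM, were higher. Lrig1, at 0.692 and 1.15 CPM, and Nog, at 0.76 and 1.15 CPM, were lower, each from 18 vehicle UMIs. The ratio intervals of Lrig1 and Nog leave their direction undetermined. Bambi, at 1.37 and 1.09 CPM, passed 1.5-fold in neither direction. Id1 was thus joined by Cdkn1a and Tgif1 among the measured target genes past 1.5-fold, and Id3, the gene most like Id1 across cells, was not among them.

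Of 8 measured helix-loop-helix genes, the partners of ID proteins, 4 were lower and 0 higher, where 5.20% and 10.1% of all measured genes were. Below the measured level, and named after its value was seen, Bhlhe40 had 4.44 CPM with ZD7288 and 2.24 CPM with vehicle, a ratio of 1.98 (1.39 to 2.89). The list had a median log2 ratio of -0.44, beside 0.09 for all measured genes. These were the oligodendrocyte lineage genes Olig1, at 896 CPM with ZD7288 and 1687 CPM with vehicle, and Olig2, at 268 and 432 CPM, the Notch effector gene Hes1, at 14.4 and 25.5 CPM, and Hes6, at 71.0 and 111 CPM. Markers of oligodendrocyte precursors, a list that shares Olig1 and Olig2, were lower for 3 of 3 measured genes, beside 5.20% of all measured genes. These markers summed to 1234 CPM with ZD7288 and 2270 CPM with vehicle. Among them Cnp stood at 67.6 and 142 CPM, Cspg4 at 2.04 and 7.24 CPM and Pdgfra at 0.109 and 1.41 CPM, Sox10 had 10 and 3 UMIs, and Gpr17 was at 0 in both. The part of such cells in the levels of Id2 and of the helix-loop-helix genes was not tested. The E protein genes, which encode the direct partners and are named after their values were seen, passed 1.5-fold in neither direction. Tcf3 stood at 210 CPM with ZD7288 and 217 CPM with vehicle, Tcf4 at 73.9 and 86.8 CPM and Tcf12 at 21.4 and 14.7 CPM. Of 3 measured genes of ID protein turnover none passed 1.5-fold, among them Cdc20 at 181 and 142 CPM and Cops5 at 110 and 123 CPM.

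**Figure D5:**
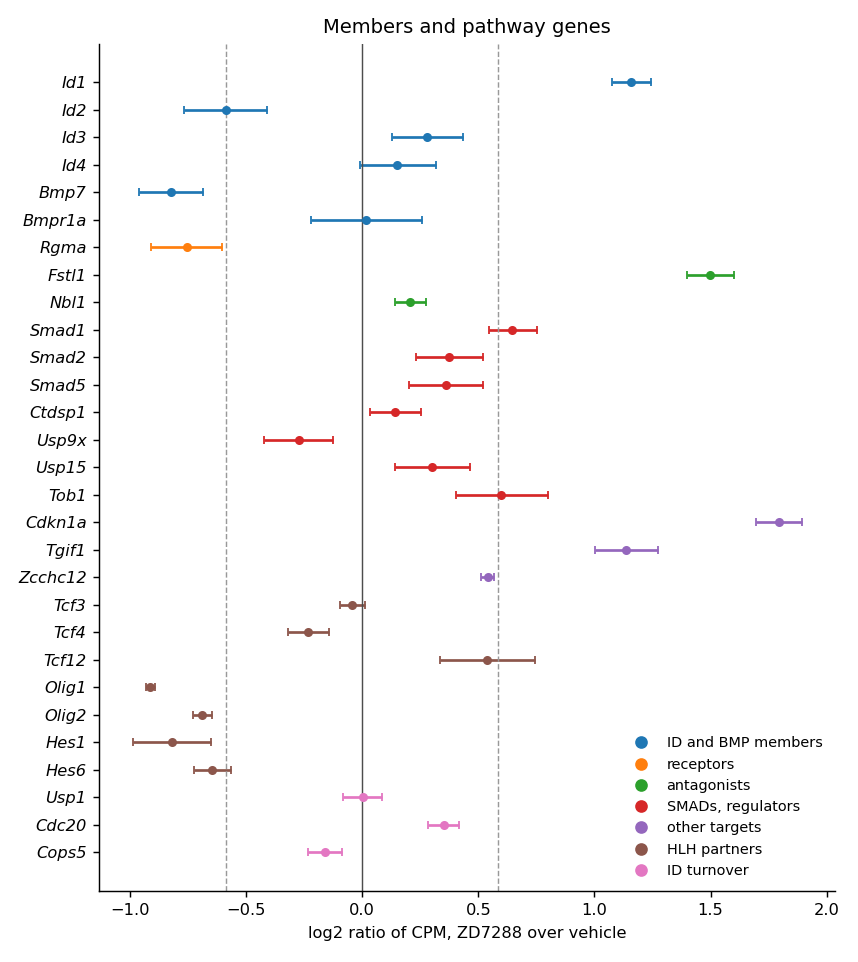
Log2 ratio of CPM, ZD7288 over vehicle, for the genes described here except Smad6 and Smad7 and for measured genes of the pathway lists, with exact 95% intervals as bars and dashed lines at 1.5-fold in either direction. Id1 lies at 1.16, Id2 at -0.59 and Bmp7 at -0.82, and no plotted gene of the helix-loop-helix list lies right of the upper dashed line.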

How the data were processed

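The values are raw UMI counts per gene and cell barcode, deposited by the authors in 1 matrix with no normalization. Per the labels' protocols, libraries were made with the 10x Chromium 3′ kit, version 2. Per the submitters' processing notes the counts came from Cell Ranger, and per the file headers the software version was 3.0.2. Not given in the sources used here were the genome build, the annotation, the counting strand and the choice of barcodes. Counts were not scaled by gene length. Levels were not ranked between genes, and the Id gene shares and Id1 to Id2 ratios were given to compare the libraries. A barcode's library was read from its number, matched to the number that opens each sample title. All ratios take their direction from that match. The libraries shared 3 barcode sequences. The number of columns of samples left unused was 0.

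Cells with at least 1000 UMIs, 500 genes and at most 10% mitochondrial UMIs were kept, 3135 of 3849 ZD7288 barcodes and 732 of 842 vehicle barcodes. Intervals are exact Poisson for CPM and exact Clopper-Pearson for shares and for ratios of levels or UMIs, at 95%, and a count of 0 was taken to allow 3. Co-detection ratios have exact Poisson intervals of the observed cells, which leave out the counting error of the shares. For shares, cells were thinned to 2000 UMIs, which left out 179 ZD7288 and 8 vehicle cells, or to 5000 UMIs, which left out 297 and 22. Doublets, scored against simulated ones and marked at 0.8% per 1000 cells (79 and 4 cells), stayed in and were left out as an alternative. The 8 genes and all lists were chosen with earlier results of these data known. The genes named beside the 8 were, in each list, up to 4 measured genes past 1.5-fold by size or the 2 of highest CPM where none passed, and for each Id gene the 3 measured genes of highest mean Pearson r over both libraries. The TATAA motif, the strata of depth and mitochondrial share and the set without mesenchymal marker cells were added after the data were seen. Python 3.11.15 with numpy 2.4.6, scipy 1.17.1, pandas 2.3.3, scikit-learn 1.9.0 and matplotlib 3.10.9 was used, and R 4.3.3 with edgeR 4.0.16 for TMM scaling. The scripts were tested on simulated data. No reference protein sequences were used here. Values of 1 list gene are not reported here.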

Additional observations from a re-analysis of the deposited data

How the results depend on the processing

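Over 16 other settings, log2 ratios of ZD7288 over vehicle ranged between 0.77 and 1.53 for Id1 and between -1.29 and -0.61 for Bmp7, past 1.5-fold in all 16, and between -1.19 and -0.28 for Id2, past it in 12. They ranged between -0.05 and 0.70 for Id3 (past 1.5-fold in 1) and between -0.29 and 0.38 for Id4 (past it in 0). Values outside the counting interval were as follows. With the median gene ratio set to 1, Id1 was at 1.07. With every cell weighing the same it was at 0.96. Summed after thinning to 2000 UMIs, Id1 was at 1.04, Id3 at 0.46, Id4 at 0.38 and Bmp7 at -1.06. Under the stricter cell filter Id2 was at -1.19, Id3 at 0.028 and Bmp7 at -1.10. At no more than 5% mitochondrial UMIs Id1 was at 1.07, Id2 at -1.17, Id3 at 0.0025 and Bmp7 at -1.14. From 15000 to 25000 UMIs Id1 was at 0.97, Id3 at 0.70 and Bmp7 at -0.62. Id1 was at 1.53 above 25000 UMIs and at 0.77 below 15000, where Id4 was at -0.29. Id3 was at 0.55 and Bmp7 at -0.61 in the S phase range, and Id3 at 0.0094 in the G2/M range. Under 10 cycle UMIs Id2 was at -0.28, Id3 at -0.047 and Bmp7 at -1.29. The cause of these shifts was not tested.

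The count of members that were higher was 2 in place of 1 from 15000 to 25000 UMIs. The count that were lower was 1 in place of 2 with equal cell weights, with doublets left out and from 15000 to 25000 UMIs, and 0 at a floor of 50 CPM or at 2-fold. Pathway genes that were higher numbered 3 in place of 5 with the median ratio set to 1. They numbered 3 at 2-fold and 10 at the loosest fold limit tried, with 24 measured at either limit. Of all measured genes, 7.1%, 2.88% and 26.9% were higher at these 3 settings. Pathway genes that were lower numbered 3 in place of 5 under the stricter filter and at the 50 CPM floor, and 0 at 2-fold. Of all measured genes, 5.32%, 2.98% and 1.26% were lower at these settings, in the same order. Cells with 2 or more Id genes, over the product of shares, stood at 1.32 in the ZD7288 library when thinned to 1000 UMIs. Of 20 log2 ratios of shares of cells, 18 stayed within counting error and 0 changed direction past it. No paired analysis was possible because each group was 1 library, and for the same reason no replicate could be left out.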
